A study of Rattus norvegicus with 12 samples.

Results

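Cdh2 encodes N-cadherin, and its transcript was read by 1 probe (A_44_P349475, assigned in the files to RefSeq NM_031333) on arrays of RNA from rat thoracic aorta. The probe is 1 of 38321 that are not controls, and Cdh2 is 1 of the 38 genes that could be named on the array. It was printed at 10 places on each array, so every value is a mean over up to 10 spots. The probe was selected on its level in SHR-C against WKY, which earlier results of these arrays showed to be far higher. All differences from WKY are therefore given as descriptions with no test, and tests are given only among the hypertensive groups.

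The 12 arrays came from male rats in 4 groups with 3 arrays each. WKY is the Wistar-Kyoto strain, which has normal blood pressure, and SHR is the spontaneously hypertensive rat, an inbred strain used as a model of essential hypertension. WKY and SHR-C rats received water by gavage, SHR-Bh rats the high dose of BSJY, a mixture of 8 herbal granules dissolved in water, and SHR-Ca rats captopril, an inhibitor of angiotensin-converting enzyme. Dosing was once daily for 16 weeks from an age of 12 weeks, and the labels give an age of 32 weeks at sampling. The labels' treatment text also calls the aortas of both strains irradiated, with no dose. Nothing in the labels says that each array held RNA of a separate rat, so the spread behind each p-value is that of the arrays and may be technical.

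N-cadherin is a classical cadherin, a membrane protein that binds the same protein on a neighbouring cell in a calcium-dependent way. Inside the cell its tail binds catenins, which link the junction to actin. In the vessel wall it joins smooth muscle cells to each other and endothelial cells to the mural cells around them, while endothelial junctions themselves are built mainly on VE-cadherin. It is also abundant in neurons and in heart muscle.

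The arrays of the 2 strains differed in ways that touch every value of Cdh2. The scan times in the file headers put the 3 WKY arrays in 1 scan made 20.5 months after the last SHR scan, so strain and scan cannot be told apart. In WKY the 75th percentile of intensity was 175.0 to 369.1, and in SHR it was 104.9 to 185.1. Between 74.0% and 87.9% of probes were well above background in WKY, against 51.2% to 68.6% in SHR. The tissue label could not be checked, since none of the 59 fixed markers of 9 cell types was named on the array. In bulk aorta, a change in the number of cells that carry a transcript and a change in RNA per cell cannot be told apart.

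On the unscaled intensity, Cdh2 was dim in WKY and bright in SHR. The geometric mean over its spots was 29.2, 62.5 and 55.0 on WKY 1 to 3. On SHR-C 1 to 3 it was 361.6, 278.1 and 235.9. On SHR-Bh 1 to 3 it was 162.2, 249.2 and 192.5, and on SHR-Ca 1 to 3 it was 124.9, 390.7 and 362.6. The brightest WKY array thus lay below the dimmest SHR array, SHR-Ca 1, by 2.00-fold, although the 75th percentile was higher on WKY 2 and WKY 3 than on any SHR array.

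The low WKY signal was still a measured one. All 120 spots of the probe, 10 on each of 12 arrays, were well above background by the scanner software. No negative control spot of the 153 on an array reached the dimmest Cdh2 spot of that array. Before background subtraction the median Cdh2 signal was 3.21 to 6.47 times the local background in WKY and 8.34 to 21.7 times in SHR. The local background itself was alike, from 14.8 in WKY 2 to 21.2 in SHR-Ca 3. The negative controls were not: after background subtraction their 95th percentile was 12.0 on SHR-Bh 2, against 1.38 to 2.62 on the other arrays. The part of the Cdh2 signal that processing removed was not alike either, and was larger in WKY. On WKY 1 to 3 the median before subtraction was 67.5, 95.5 and 86.5, and the processed geometric mean was 29.2, 62.5 and 55.0. These values were 148 and 124.9 on SHR-Ca 1, the dimmest SHR array, and 401 and 390.7 on SHR-Ca 2, the brightest.

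**Figure D1:**
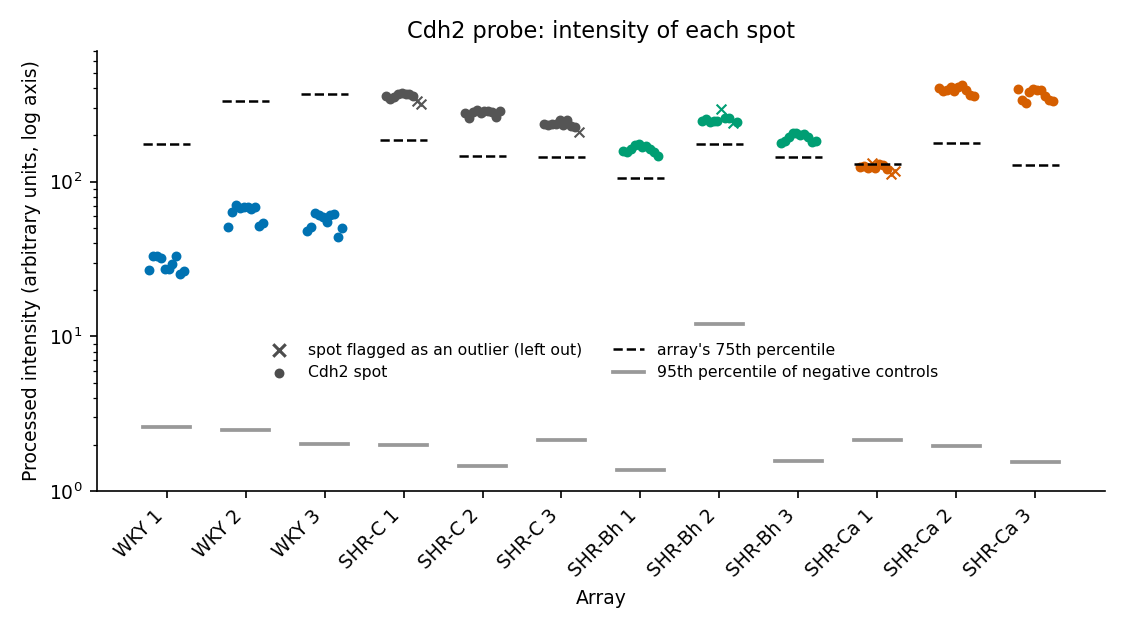
Processed intensity (log axis) of each Cdh2 spot on the 12 arrays, coloured by group, with spots flagged as outliers as crosses, the array's 75th percentile as a dashed line and the 95th percentile of its negative controls as a grey line. The WKY spots lie below the dashed line of their array, the SHR-Ca 1 spots lie on it, and those of the other 8 SHR arrays lie above it.

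The level used from here on is log2 intensity minus the log2 75th percentile of the same array, so that 0 means a signal equal to that percentile. Cdh2 stood at -2.58, -2.41 and -2.75 on WKY 1 to 3. It stood at 0.97, 0.93 and 0.71 on SHR-C 1 to 3, and at 0.63, 0.50 and 0.42 on SHR-Bh 1 to 3. SHR-Ca 1 to 3 gave -0.05, 1.14 and 1.49. All 9 SHR arrays lay above all 3 WKY arrays, and the gap between SHR-Ca 1 and WKY 2, the nearest pair, was 2.36 on the log2 scale.

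The group means ran in the order WKY (-2.58 ± 0.17), SHR-Bh (0.52 ± 0.10), SHR-Ca (0.86 ± 0.81) and SHR-C (0.87 ± 0.14; SD, n = 3). SHR-Ca and SHR-C had nearly the same mean, and SHR-Bh lay inside the range of the SHR-Ca arrays. The spread within SHR-Ca was far wider than within the other groups and came from SHR-Ca 1, the lowest of the 9 SHR arrays, beside SHR-Ca 3, the highest. Pooled over the 4 groups, the SD between arrays was 0.42, close to the median of 0.43 over all 29618 tested probes. The 10 spots of 1 array had a pooled SD of 0.11. The SD between arrays was above this in SHR-Ca (0.81) and SHR-C (0.14) and about equal to it in SHR-Bh (0.10), and in WKY (0.17) it lay inside the range of that group's own spot SDs (0.15 to 0.19). The spot SDs are those of single spots, while the level of an array is a mean over up to 10. Spot noise in a level is thus smaller than the spot SD, and no group is shown to vary only as much as its spots.

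**Figure D2:**
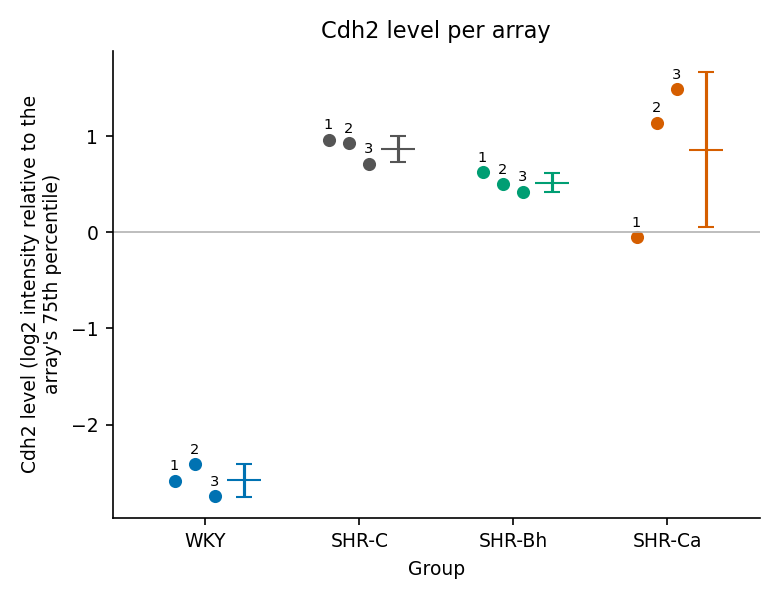
Cdh2 level (log2 intensity minus the log2 75th percentile) of each array, labelled by replicate number, with the mean and SD of each group beside its 3 arrays. The WKY arrays lie between -2.75 and -2.41 and the SHR arrays between -0.05 and 1.49, with SHR-Ca 1 the lowest and SHR-Ca 3 the highest of the SHR arrays.

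Measured from WKY, Cdh2 was higher by 3.45 (SE 0.34) in SHR-C, which is 10.9-fold. It was higher by 3.10 in SHR-Bh, or 8.56-fold, and by 3.44 in SHR-Ca, or 10.9-fold, with the same SE. The 3 differences share the WKY arrays and so are not independent of each other. Taken spot by spot, over the spots kept on every array, the SHR-C difference was 3.26 to 3.65 (8 spots), the SHR-Bh difference 2.91 to 3.25 (8 spots) and the SHR-Ca difference 3.20 to 3.70 (7 spots). It was positive at all 10 places on the array in each group. At the other places 1 or 2 arrays of the group (SHR-Ca 1, SHR-Bh 2, or SHR-C 1 and 3) had a flagged spot, and with those spots put back the upper ends were 3.65, 3.29 and 3.70. Leaving out any 1 array kept the SHR-C difference between 3.37 and 3.54, the SHR-Bh difference between 3.01 and 3.18, and the SHR-Ca difference between 3.13 and 3.90, the highest being without SHR-Ca 1.

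The size of these differences depended on how arrays were scaled and background was handled, while their direction did not in any of the settings run. With no scaling between arrays Cdh2 was 6.18-fold higher in SHR-C than in WKY, 4.26-fold in SHR-Bh and 5.61-fold in SHR-Ca. Normexp background correction, which adds an offset of 50 and so draws dim values together, gave 2.21, 1.93 and 2.24 on the log2 scale. Scaling by the array median gave the highest values, 4.34, 4.17 and 4.47. In each of the settings for scaling, background and spots the lowest SHR array stayed above the highest WKY array, by 1.00 (no scaling) to 3.4 (array median).

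**Figure D3:**
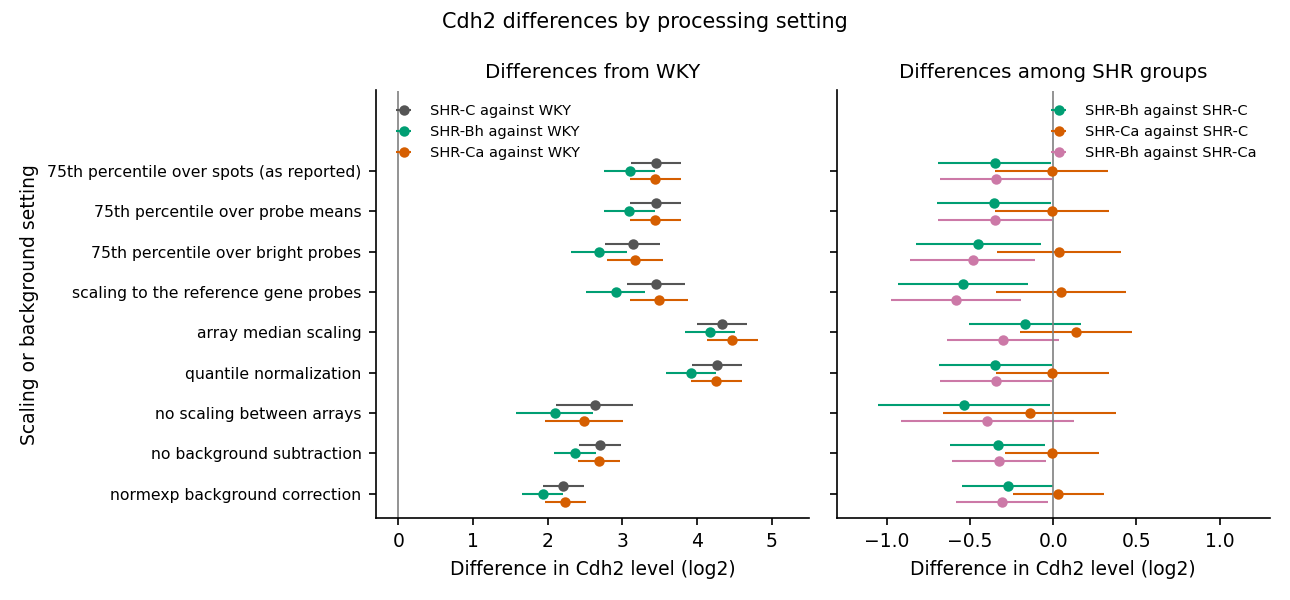
Difference in Cdh2 level (log2) between groups under 9 settings for scaling and background, with bars of 1 SE, for the SHR groups against WKY on the left and among the SHR groups on the right. On the left all points lie between 1.93 and 4.47, and on the right they lie between -0.58 and 0.14.

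Set beside all tested probes, the separation of strains was common and its size in Cdh2 was less so. SHR-C lay wholly above WKY in 26.8% of probes, SHR-Bh in 27.8% and SHR-Ca in 25.1%, and wholly above or below it in 70.9%, 75% and 71.3%. All 9 SHR arrays lay on one side of all 3 WKY arrays in 58.3% of probes. They lay above them in 20.2% of probes, in 47.6% of the 42 tested probes with 10 spots and in 46.9% of the 32 named genes that were tested, with 3.12% of these wholly below. A gap at least as wide as that of Cdh2 was found in 0.456% of probes (135), and in 3 named genes (9.38%), which were Cyp2e1, Eif4b and Cdh2 itself. A larger rise than that of Cdh2 from WKY was measured in 1.14% of probes for SHR-C, 1.35% for SHR-Bh and 1.15% for SHR-Ca. The probes as a whole had a median of -0.42, -0.50 and -0.56 in these comparisons. These shares describe the contrast on which Cdh2 was selected.

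Among the hypertensive rats, the first question is whether the high dose of BSJY moved Cdh2. SHR-Bh (0.42 to 0.63) lay wholly below SHR-C (0.71 to 0.97), a difference of -0.35 (SE 0.34), which is 0.784-fold. The test across all probes with limma did not call it (adjusted p = 0.70, with 0.48 to 1.00 in the settings run), and the 95% interval ran from 0.468-fold to 1.31-fold. Of all tested probes 0.128% passed in this comparison, 37 probes lower and 1 (0.00338%) higher in SHR-Bh. The groups did not overlap in 15.5% of probes, and in 9.62% SHR-Bh lay wholly below, so the separation seen for Cdh2 was common. The SE is shared by the 4 groups and carries the wide spread of SHR-Ca. With only SHR-Bh and SHR-C in the fit it was 0.23 and the limma adjusted p was 0.60. No scan held arrays of both groups. With the scan as a block among the SHR arrays, which links the groups through SHR-Ca, the difference was -1.24 (SE 0.73, limma adjusted p = 1.00).

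Captopril is the other treatment. SHR-Ca and SHR-C overlapped and differed by -0.01 (SE 0.34, limma adjusted p = 0.99), with a 95% interval from 0.594-fold to 1.67-fold. Of all tested probes 0.29% passed, all lower in SHR-Ca, and the groups did not overlap in 16.2%, with SHR-Ca wholly below in 8.82%. The near zero mean hides 2 SHR-Ca arrays above every SHR-C array and 1 below them all. Without SHR-Ca 1 the difference was 0.45 (limma adjusted p = 0.33), without SHR-Ca 3 it was -0.32 (0.72), and the adjusted p lay between 0.33 and 1.00 in every setting run. Within the scan holding both SHR-Ca 1 and 2 and SHR-C 2 and 3, the difference was -0.27 (SE 0.39, limma adjusted p = 0.91).

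Between the treatments, Cdh2 was lower in SHR-Bh than in SHR-Ca by 0.34 on average (difference -0.34, SE 0.34, limma adjusted p = 0.82), with overlap and a 95% interval from 0.470-fold to 1.32-fold. No probe passed here with limma (0%), while the unadjusted p was below 0.05 for 7.18% (2128 probes). The groups did not overlap in 9.37% of probes, with SHR-Bh wholly below in 5.3%. The difference was -0.80 without SHR-Ca 1 (adjusted p = 0.13) and -0.03 without SHR-Ca 3 (adjusted p = 1.00), and the adjusted p lay between 0.13 and 1.00 in every setting run. Within the scan that held SHR-Bh 1, SHR-Bh 3 and SHR-Ca 3 it was -0.96 (SE 0.48, limma adjusted p = 1.00). A p above the threshold does not show that Cdh2 was the same in these groups, since each interval reaches from a level lower by over 1.5 times to one that is higher.

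The named genes whose levels ran most like Cdh2 over the 12 arrays, by Pearson's r, were Cyp2e1 (0.96), a cytochrome P450 enzyme, Eif4b (0.94), a translation initiation factor, and Ndfip1 (0.92), an adaptor of ubiquitin ligases. On each array the same percentile was subtracted from Cdh2 and from the other gene. The 2 strains form separate clusters for each of these genes, so these values mainly describe the strain step. With no scaling between arrays the r of Ndfip1 fell to 0.56. After the mean of each SHR group was subtracted, the same genes gave -0.24, -0.54 and 0.34 over the 9 SHR arrays. Of all 29513 probes compared, 6.15% had r above 0.9 with Cdh2 over the 12 arrays. The nearest 2 carried no gene name: ASRNV20013515 (0.99) and ASRNV20022411 (0.99). An r below -0.9 was more common, at 16.9% of probes, and the median r was -0.40. Among the named genes the lowest were Ldha (-0.76), a lactate dehydrogenase subunit, and Rplp1 (-0.62), a ribosomal protein. Both turned positive with the array median as the scale, to 0.28 and 0.77.

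Within the SHR groups other named genes ranked highest. Deviations from the group means over the 9 SHR arrays correlated with those of Cdh2 for Ptk2b (r = 0.89, Spearman's rho 0.87), a calcium-responsive tyrosine kinase, and Ppp2r2b (r = 0.85, rho 0.88), a brain-enriched regulatory subunit of a protein phosphatase. Without SHR-Ca 1 alone these r were 0.46 and 0.55. Over the 7 arrays other than SHR-Ca 1 and SHR-Ca 3, where Cdh2 lay farthest from its group, they were 0.76 and 0.65. The group means subtracted for these values still held both arrays, unlike those without SHR-Ca 1 alone, so their effect was not removed. Map2, which binds microtubules in dendrites, ranked between Ptk2b and Ppp2r2b, and P2rx2, an ATP-gated channel, after them. Map2 was well above background on 5 of the 9 SHR arrays and P2rx2 on 6, so no likeness is read from either, and the r of Map2 went from 0.86 to 0.50 with normexp. Fgf2 (r = 0.75), a growth factor of vessels, was well above background on 8. Without SHR-Ca 1 the r of Fgf2 was -0.02. The median r over all probes was -0.13, and 0.529% of probes had r above 0.9. The lowest were Rplp1 (-0.78) and Ldha (-0.73). Over the same 7 arrays, with group means that again held SHR-Ca 1 and SHR-Ca 3, these were -0.06 and -0.74. With 1 SHR array left out and the group means taken anew, Rplp1 stayed between -0.91 and -0.56. Its value too rested on the scaling, with -0.29 after quantile normalization and 0.17 unscaled. The value of Ldha rested on SHR-Ca 1, without which it was 0.08, and on the scaling, with -0.34 after quantile normalization and -0.0058 unscaled. The nearest probes by this measure were ASRNV20025348 (r = 0.99), which was higher in WKY than in SHR, and ASRNV20023767 (r = 0.98).

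The arrays behind this likeness can be named. Cdh2 was lowest among the SHR arrays on SHR-Ca 1 (-0.05), SHR-Bh 3 (0.42) and SHR-Bh 2 (0.50). On these arrays Ppp2r2b was -3.15, -2.73 and -2.66. The value on SHR-Ca 1 lay below the WKY range of -2.87 to -2.15 and the others lay inside it. On the other 6 SHR arrays Ppp2r2b was 1.40 to 2.58. Ptk2b was -2.25, -2.23 and -2.35 on the same 3 arrays, inside its WKY range of -2.95 to -2.01, and -0.94 to 0.17 on the others. Cdh2 itself stayed above every WKY value on all 3 arrays, by at least the gap of 2.36. Map2 and P2rx2 were not well above background on these 3 arrays, nor was Map2 on SHR-C 3, so their values there are no more than a bound. Probes well above background made up 58.0% on SHR-Ca 1, 62.4% on SHR-Bh 3 and 51.2% on SHR-Bh 2, against 58.8% to 68.6% on the other 6, and its part in the likeness was not tested. The order of Cdh2 among the SHR-Bh arrays depended on the scaling. Unscaled, SHR-Bh 1 (7.34) lay below SHR-Bh 3 (7.59) and SHR-Bh 2 (7.96), and the r of Ptk2b and Ppp2r2b were 0.84 and 0.65. With array medians SHR-Bh 1 to 3 were nearly equal (3.84, 3.80 and 3.82). SHR-Ca 1 was the lowest SHR array in both settings.

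**Figure D4:**
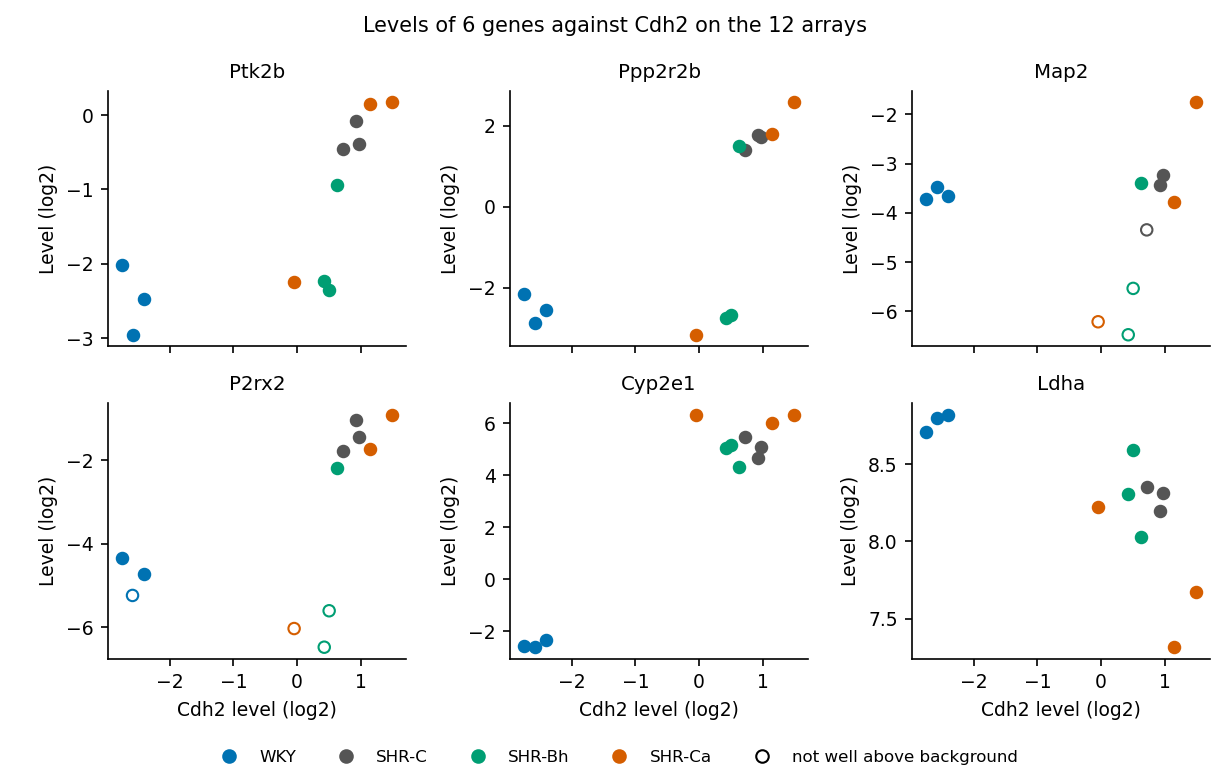
Level of 6 named genes against the level of Cdh2 (both log2, on the scale described above) on the 12 arrays, coloured by group, with open circles where the gene was not well above background. Ptk2b and Ppp2r2b separate SHR-Ca 1, SHR-Bh 2 and SHR-Bh 3 from the other SHR arrays. Map2 and P2rx2 were not well above background on those arrays, so their low values there are no more than a bound. Cyp2e1 separates WKY (-2.61 to -2.32) from SHR (4.31 to 6.33), and Ldha is highest in WKY.

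Other genes of the cadherin junction could not be followed. Of a list of 34 cadherins, catenins and their regulators and partners, including E-cadherin, VE-cadherin, beta-catenin and the Snai and Zeb repressors, Cdh2 was the only member with a named probe. Whether its catenin partners or VE-cadherin differed in the same samples was not analysed here.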

How the data were processed

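Total RNA labelled with Cy3 was hybridised to 12 single-colour arrays. The deposited scanner files, 1 for each array, give spot intensity in arbitrary units. The software (Agilent Feature Extraction 11.0.1.1, per the file headers) had corrected it for background and for gradients across the slide, and no step between arrays is recorded. The array design names the rat build rn4, which differs from that of the RefSeq gene table (GRCr8) used for names, so no coordinates are given.

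Outlier spots were left out (8 of the 120 Cdh2 spots), the other spots of each probe were averaged as log2 processed intensity, from which the 75th percentile over non-control spots of that array was taken away. Probes well above background, on at least 50% of their spots, on all 3 arrays of at least 1 group were tested (29618 of 38321, 77.3%). One fit of all 4 groups in limma 3.58.1 (R 4.3.3) gave two-sided moderated tests with Benjamini-Hochberg adjustment over all of these, at a threshold of 0.05. No spot was saturated. The number of arrays limits the precision.

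Arrays sharing a scan time in the headers formed 5 scans: WKY 1 to 3, then SHR-C 1, then SHR-C 2 and 3 with SHR-Ca 1 and 2, then SHR-Bh 1, SHR-Bh 3 and SHR-Ca 3, then SHR-Bh 2. The labels do not say that replicate numbers pair arrays. Deviations of same-numbered arrays correlated above 0.1 in all 3 pairs of WKY with SHR-C (0.177 to 0.477) and of WKY with SHR-Bh (0.154 to 0.308), in 0 of 3 of WKY with SHR-Ca, and in 1 of 9 among SHR groups. Differently numbered pairs reached 0.354 for WKY with SHR-C and 0.268 for WKY with SHR-Bh, above some of the same-numbered pairs. Of the probes, 39 matched 38 RefSeq genes by accession. The brightest probe stood for a gene. Named genes were Cdh2, listed adhesion genes or cell markers that the array names, and by Pearson's r with Cdh2 the 3 highest and 2 lowest named genes and 2 unnamed probes, over 12 arrays and within SHR groups. P2rx2 and Fgf2, next in that order, were named after their values were seen. The members, lists and most settings were chosen with earlier results of these data known. Alternatives covered scaling, background, spots, filters, variance, pairing, scans and single arrays. The planned mean spot signal was replaced by the median signal, which the files hold.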

Additional observations from a re-analysis of the deposited data

How the results depend on the processing

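No setting put Cdh2 past the threshold in a comparison among SHR groups. SHR-Bh against SHR-C stayed negative in all 23 alternatives (-1.24 to -0.17), as did SHR-Bh against SHR-Ca in all 24 (-0.96 to -0.03). SHR-Ca against SHR-C, at -0.01, turned positive with array median scaling (0.14), the percentile over bright probes (0.034), reference gene scaling (0.046), normexp (0.031), outlier spots kept (0.0017) and array weights (0.33), and ran from -0.32 to 0.45 with 1 array left out. With 1 array left out SHR-Bh against SHR-C ran from -0.43 to -0.30 and SHR-Bh against SHR-Ca from -0.80 to -0.03.

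For SHR-C, SHR-Bh and SHR-Ca against WKY the differences were 4.26, 3.92 and 4.26 with quantile normalization, 4.34, 4.17 and 4.47 with array medians, 2.63, 2.09 and 2.49 unscaled, 2.21, 1.93 and 2.24 with normexp, and 2.70, 2.36 and 2.69 without background subtraction. The percentile over bright probes gave 3.14 and 2.69 for the first 2, and reference gene scaling gave 2.91 for SHR-Bh. The cause was not tested.

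Calls over all probes moved more. SHR-Bh against SHR-C had 38, but 18 with quantile or median scaling, 7 with bright probes or no background subtraction, 22 unscaled, 72 with reference genes, 5 with normexp, 308 with array weights, 4 unfiltered, 19 over probes bright on all arrays, and 0 with only those groups or the scan block. Without SHR-Bh 1 it was 92, and 0 without any other array of the 2 groups. SHR-Ca against SHR-C had 86, but 53 with bright probes, 11 with normexp, 20 without background subtraction, 212 with array weights, 30 over probes bright on all arrays, 0 with only those groups or the scan block, and 39 to 155 with 1 array left out (lowest without SHR-C 1, highest without SHR-Ca 1; 49 without SHR-C 2 or SHR-Ca 3, 43 without SHR-Ca 2). SHR-Bh against SHR-Ca had 0, 1 with array weights and 0 to 20 with 1 array left out (20 without SHR-Bh 1, 1 without SHR-Ca 1).

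Among SHR groups 1 of 9 same-numbered pairs of arrays correlated above 0.1, and over all 4 groups 2 of 12 arrays matched best with their own number. These values cannot settle whether the replicate numbers pair arrays. The replicate block left the differences from WKY at 3.45, 3.10 and 3.44 and those among SHR groups at -0.35, -0.01 and -0.34 (limma adjusted p = 0.73, 0.99 and 0.84), with 21 calls for SHR-Bh against SHR-C. No scan held WKY and SHR arrays, or SHR-Bh and SHR-C, so those have no within-scan value. The percentile over probe means, added after seeing the data, changed no Cdh2 call. The r of Ldha and Rplp1 over 12 arrays turned to 0.28 and 0.77 with array medians, and that of Rplp1 within SHR to 0.17 unscaled.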

Other observations

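The 10 Cdh2 spots differed by place on the array, more so on the WKY arrays. The 4 spots nearest the top and bottom edges of the 532 rows deviated from their array's Cdh2 level by a mean of -0.15 on WKY arrays and -0.05 on SHR arrays, and the 6 inner spots by 0.10 and 0.03. On the 3 WKY arrays the SD over spots was 0.15 to 0.19, against 0.04 to 0.12 on the SHR arrays, where the signal was brighter.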
